A study of Mus musculus with 4 samples.

Results

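The sarcoplasmic reticulum calcium release and uptake genes examined here are *Ryr2*, *Atp2a2*, *Pln*, *Casq2*, *Hrc*, *Trdn*, *Jph2*, *Asph*, *Srl* and *Fkbp1b*. Rows were selected by gene symbol, and each of the 10 genes had 1 row among the 55401 genes of the expression table. The table covers hearts of 8-week-old animals, 2 of them wild-type and 2 heterozygous for a *Ctcf* mutation. Each genotype has a replicate 1 and a replicate 2. The sample titles say heart and name no part of it. The mutation, CTCF-R567W, lies on one *Ctcf* allele and was made by CRISPR/Cas9 editing on a C57BL/6N background, and the wild-type mice carry no edited allele. CTCF is the zinc finger protein that anchors chromatin loops. The allele is a germline one, and RNA of heart tissue holds transcripts of many cell types. The study made this comparison to look at gene expression behind the contractile function of adult heterozygous hearts.

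In a cardiomyocyte, calcium that enters through the L-type channel of the transverse tubule opens the ryanodine receptor RYR2 of the facing sarcoplasmic reticulum, and the released calcium starts contraction. Relaxation follows when the calcium pump SERCA2a, encoded by *Atp2a2*, returns calcium to the reticulum under the brake of phospholamban, encoded by *Pln*. Inside the reticulum calsequestrin, the histidine-rich calcium-binding protein and sarcalumenin hold calcium, while triadin and junctin tether calsequestrin to the release channel, and junctophilin keeps the membranes of the junction together.

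Values are TPM, the share of transcript molecules assigned to a gene, and are corrected for transcript length, so that levels can be compared between genes. TPM are shares of a fixed total, and between 61.1% and 68.6% of it came from mt- genes, those encoded by mitochondrial DNA. Each library was therefore divided by a median-of-ratios factor (0.818 to 1.26), and the result is called scaled TPM. A log2 fold change is the heterozygous minus the wild-type mean of log2(scaled TPM + 1), which understates the change of low genes. It was tested with limma across the 10036 genes whose mean TPM reached 1 (two-sided), and p-values were adjusted by Benjamini-Hochberg over all 10036. The read depth behind TPM is unknown, so no counting error is given. The ventricular and general cardiomyocyte markers that define the tissue were abundant in every library, with summed levels of 10 markers between 22454 and 28157 scaled TPM. Of 8 skeletal muscle markers, the myosins *Myh1*, *Myh2* and *Myh4* were listed at 0 in every library. *Mylpf*, *Tnni2*, *Tnnt3*, *Tnnc2* and *Actn3* were above 0 in every library. The summed level of the 8 markers lay between 4.38 and 5.52 scaled TPM.

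None of the 9 members that could be tested was called (limma adjusted p under 0.05 together with more than 1.5-fold), where 0.0199% of all tested genes were called. *Fkbp1b* was under the expression minimum. *Hrc* was lower in both heterozygous hearts and was the 1 member with an unadjusted p under 0.05, and *Pln* and *Atp2a2*, the most abundant members, also had lower values in both heterozygous hearts. An unadjusted p under 0.05 with a lower value in heterozygous hearts was found for 5.71% of all tested genes, and with a higher value for 6.49%, a side on which 0 members stood. The genotypes separated, with the heterozygous hearts under the wild-type hearts, for 6 of the 9 tested members (*Hrc*, *Pln*, *Atp2a2*, *Srl*, *Casq2* and *Jph2*) and for 23.3% of all tested genes. Both lay above for 1 member, *Asph*, and for 23.7% of all tested genes. The median log2 fold change of the tested members was -0.20, and that of all tested genes was -0.0047. With 2 mice against 2, an exact permutation test of a single gene cannot give a two-sided p under 0.33. In RNA of heart tissue, fewer cells of a type and less RNA per cell cannot be told apart.

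**Figure D1:**
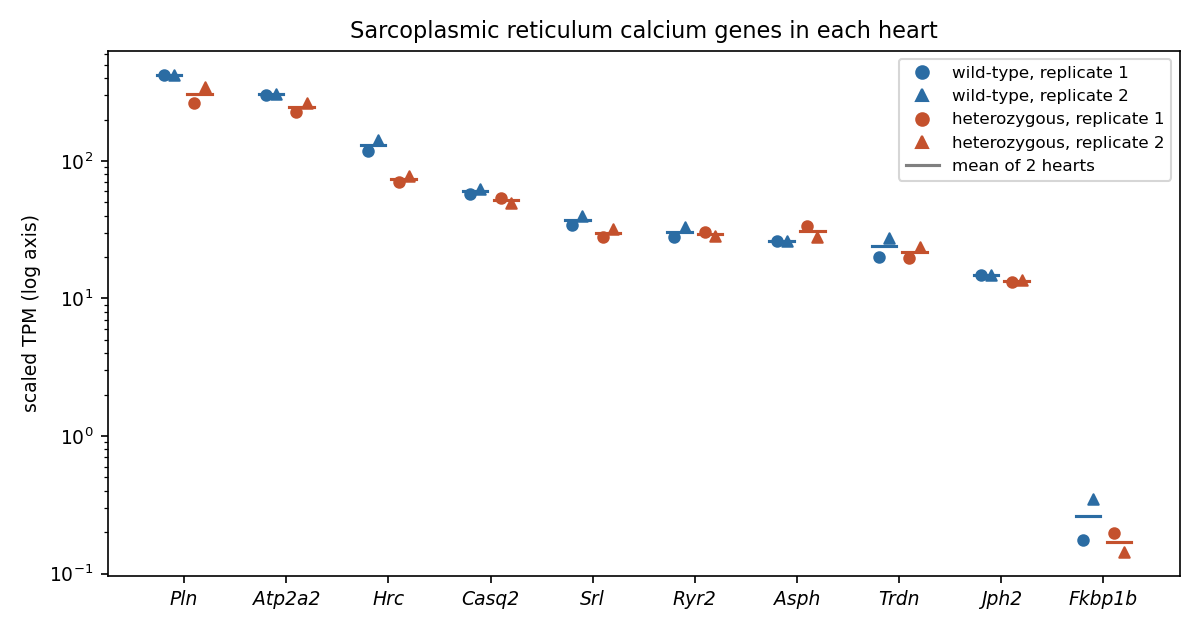
Level of each member in each heart, in scaled TPM on a log axis, with circles for replicate 1, triangles for replicate 2 and bars for the mean of 2 hearts. *Hrc* has means of 130.0 and 74.2 scaled TPM, the points of *Ryr2* and *Trdn* overlap, and *Fkbp1b* lies under 1 scaled TPM in every heart.

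*Pln* and *Atp2a2* were the most abundant members in every heart. In TPM as deposited, the order in wild-type hearts was *Pln* (mean 494.9 TPM), *Atp2a2* (358.4), *Hrc* (153.5), *Casq2* (70.6), *Srl* (43.6), *Ryr2* (36.0), *Asph* (30.7), *Trdn* (28.4), *Jph2* (17.3) and *Fkbp1b* (0.315). From *Srl* to *Trdn* the ranges over the wild-type hearts overlapped between neighbours, and the other neighbours did not overlap. Within each wild-type heart *Srl* lay above *Ryr2* and *Ryr2* above *Asph*, whereas *Asph* and *Trdn* changed places between the hearts. Among heterozygous hearts the ranges of *Pln* (264.8 TPM) and *Atp2a2* (211.5) overlapped, as did those of *Asph* (26.5), *Srl* (25.8) and *Ryr2* (25.3). *Hrc* (64.0) still lay above *Casq2* (44.6), and *Trdn* (18.8) above *Jph2* (11.5). Summed over the 10 members, the level was 1028 and 1071 scaled TPM for wild-type and 742.3 and 862.4 for heterozygous hearts. Together the members took 0.317% and 0.347% of the TPM outside mt- genes for wild-type and 0.193% and 0.208% for heterozygous hearts. Both sums were lower in both heterozygous hearts. With mt- genes left out, 58.9% of all tested genes were also lower in both heterozygous hearts, and their median log2 fold change was -0.31. In scaled TPM 23.3% of all tested genes were lower in both, with a median of -0.0047. *Pln* alone made up between 35.5% and 41.3% of the summed TPM and *Atp2a2* between 28.7% and 30.8%. Within the sum, the share of *Hrc* was 11.6% and 13.2% in wild-type and 9.45% and 9.07% in heterozygous hearts. The share of *Asph* was 2.57% and 2.43% against 4.54% and 3.25%.

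Among the uptake genes, *Atp2a2* encodes the pump that refills the sarcoplasmic reticulum (chromosome 5, 122453513 to 122502225, minus strand, GRCm38). It stood at 303.4 and 306.9 scaled TPM in the wild-type hearts and at 228.5 and 261.5 in the heterozygous hearts (replicate 1 first, here and in what follows). The wild-type hearts were nearly alike, and both heterozygous hearts lay under them. The means were 305.2 ± 2.50 and 245.0 ± 23.4 (SD, n = 2 each). The log2 fold change was -0.32 (standard error, SE, of 0.19, 95% interval -0.77 to 0.13, limma adjusted p = 0.506). Its 2 protein-coding transcripts in the GENCODE annotation are summed in the gene value, so that the heart and housekeeping isoforms of the pump were not separated.

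*Pln* encodes phospholamban, the small membrane protein that lowers the calcium affinity of the pump until it is phosphorylated (chromosome 10, 53337667 to 53345987, plus strand). It stood at 424.0 and 419.5 scaled TPM in the wild-type hearts and at 263.9 and 347.4 in the heterozygous hearts. The groups did not overlap, and the heterozygous hearts were further from each other than the wild-type hearts were. The means were 421.7 ± 3.23 and 305.6 ± 59.0 (SD, n = 2). This gave a log2 fold change of -0.48 (SE 0.21, 95% interval -0.99 to 0.03, limma adjusted p = 0.420). The value rests partly on 1 heart: without heterozygous replicate 1 it was -0.28, and without heterozygous replicate 2 it was -0.68, at an adjusted p of 0.399 and 0.136 from limma.

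*Gm47644* is a gene model annotated on the strand opposite to *Pln* (chromosome 10, 53337753 to 53345085), and 1771 bases of its span lie in annotated *Pln* exons. It was picked out after its values were seen. It stood at 18.1 and 22.3 scaled TPM in the wild-type hearts and at 10.5 and 6.90 in the heterozygous hearts, a log2 fold change of -1.15 (SE 0.22, limma adjusted p = 0.271). Whether the counting used strand is not given in the sources used here, so it is not known whether reads on the shared bases were kept apart. Its level was small beside that of *Pln* in every heart.

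Of the lumenal calcium-binding proteins, *Hrc* encodes the histidine-rich calcium-binding protein, which binds triadin inside the junctional reticulum and is also known to contact the pump (chromosome 7, 45335290 to 45338974, plus strand, 6 exons in the longest coding transcript). It stood at 118.9 and 141.0 scaled TPM in the wild-type hearts and at 70.2 and 78.2 in the heterozygous hearts. The groups were far apart beside the spread within them, at 130.0 ± 15.6 and 74.2 ± 5.72 (SD, n = 2). The log2 fold change was -0.80 (SE 0.19, 95% interval -1.25 to -0.35), a fold of 0.575, with limma p-values of 0.00432 unadjusted and 0.308 adjusted. *Hrc* was the 1 tested member whose interval lay wholly on one side of 0. Without wild-type replicate 2 the log2 fold change was -0.67 with an unadjusted p of 0.0702 from limma. With any other library left out, the log2 fold change lay between -0.92 and -0.72.

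*Casq2* encodes cardiac calsequestrin, the main calcium buffer of the reticulum (chromosome 3, 102086415 to 102146514, plus strand). It stood at 57.7 and 62.3 scaled TPM in the wild-type hearts and at 54.2 and 49.8 in the heterozygous hearts. The heterozygous values were lower, but the nearest hearts of different genotype were closer together than the replicates of either genotype. This gave a log2 fold change of -0.20 (SE 0.17, 95% interval -0.61 to 0.20, limma adjusted p = 0.630). *Srl*, which encodes sarcalumenin, a calcium-binding glycoprotein of the longitudinal reticulum (chromosome 16, 4480216 to 4541816, minus strand), stood at 34.4 and 39.5 against 28.1 and 31.8 scaled TPM. Its groups did not overlap, and the log2 fold change was -0.29 (SE 0.17, 95% interval -0.71 to 0.12, limma adjusted p = 0.506).

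The release channel gene itself did not separate by genotype. *Ryr2* encodes the channel through which calcium leaves the reticulum (chromosome 13, 11553102 to 12106945, minus strand, 105 exons in the longest coding transcript). It stood at 28.0 and 33.0 scaled TPM in the wild-type hearts and at 30.7 and 28.3 in the heterozygous hearts, so that both heterozygous values lay between the wild-type values. The log2 fold change was -0.04 (SE 0.17, limma adjusted p = 0.929), and its 95% interval ran from -0.45 to 0.36, which leaves room for moderate changes in either direction. *Fkbp1b* encodes the immunophilin that binds RYR2 and steadies its closed state (chromosome 12, 4833174 to 4841591, minus strand). Its deposited values were 0.19 and 0.44 TPM for wild-type and 0.16 and 0.13 TPM for heterozygous hearts. At this level the 2 decimals of the deposited values are coarse. *Fkbp1b* was not in the main test and was tested only with no filter on low values (log2 fold change -0.11, limma adjusted p = 0.704). Its paralog *Fkbp1a*, which encodes a close relative of the same protein, stood far higher, at 19.2 and 17.8 against 18.6 and 19.7 scaled TPM, and overlapped between genotypes (log2 fold change 0.05, SE 0.15, limma adjusted p = 0.919).

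Among the proteins that hold the junction together, *Trdn* encodes triadin, which links calsequestrin to the channel (chromosome 10, 33080554 to 33476709, plus strand). It stood at 20.1 and 27.7 scaled TPM in the wild-type hearts and at 19.8 and 23.7 in the heterozygous hearts. The replicates of each genotype were further apart than the means, and the log2 fold change was -0.12 (SE 0.21, 95% interval -0.61 to 0.38, limma adjusted p = 0.829). *Jph2* encodes junctophilin-2, which spans from the reticulum to the transverse tubule (chromosome 2, 163336242 to 163397993, minus strand). Its values were 14.72 and 14.74 against 13.2 and 13.5 scaled TPM, a small gap between closely grouped replicates. The log2 fold change of *Jph2* was -0.13 (SE 0.15, 95% interval -0.48 to 0.22, limma adjusted p = 0.724).

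*Asph* stood alone on the higher side. The gene encodes junctin and junctate, small proteins of the reticulum membrane, and also the enzyme aspartate beta-hydroxylase (chromosome 4, 9448069 to 9669344, minus strand). It stood at 26.4 and 26.0 scaled TPM in the wild-type hearts and at 33.7 and 28.0 in the heterozygous hearts. Both heterozygous hearts lay above both wild-type hearts, replicate 1 by more than replicate 2. This gave a log2 fold change of 0.22 (SE 0.17, 95% interval -0.18 to 0.63, limma adjusted p = 0.597). On unscaled TPM it was -0.21, and after mt- genes were left out it was -0.10. The annotation lists 15 protein-coding *Asph* transcripts between 457 and 6694 bases long, and gene-level TPM do not show which of these products a read came from.

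Scaling sets the level against which every gene is read, and it turned the sign of 4 of the 9 tested members. All tested genes together had a median of -0.35 on unscaled TPM, of -0.31 after mt- genes were left out and the rest rescaled, and of 0.12 when the libraries were scaled to the cardiomyocyte markers. *Ryr2*, *Trdn* and *Jph2* stood at 0.12, 0.04 and 0.02 under the last of these. Relative to that median, *Hrc* stood between -0.92 and -0.67 over 15 alternatives of scaling, filtering, model and library. *Pln* stood between -0.68 and -0.27, *Atp2a2* between -0.42 and -0.19, *Srl* between -0.39 and -0.19, *Casq2* between -0.29 and -0.14 and *Jph2* between -0.20 and -0.10. These 6 members were under the median of all tested genes in each of the 15. The 15 are not separate checks, as all draw on the same 4 hearts. The eBayes and replicate block alternatives leave the log2 fold change and the median unchanged. *Asph* was above it in each, between 0.10 and 0.35. *Ryr2* and *Trdn* crossed it, at -0.16 to 0.08 and -0.34 to 0.11. No alternative called any of the 9 tested members. Over the 15, the limma adjusted p ran from 0.0612 to 1.0 for *Hrc*, from 0.0693 to 1.0 for *Pln* and from 0.0720 to 1.0 for *Atp2a2*, each lowest after mt- genes were left out.

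**Figure D2:**
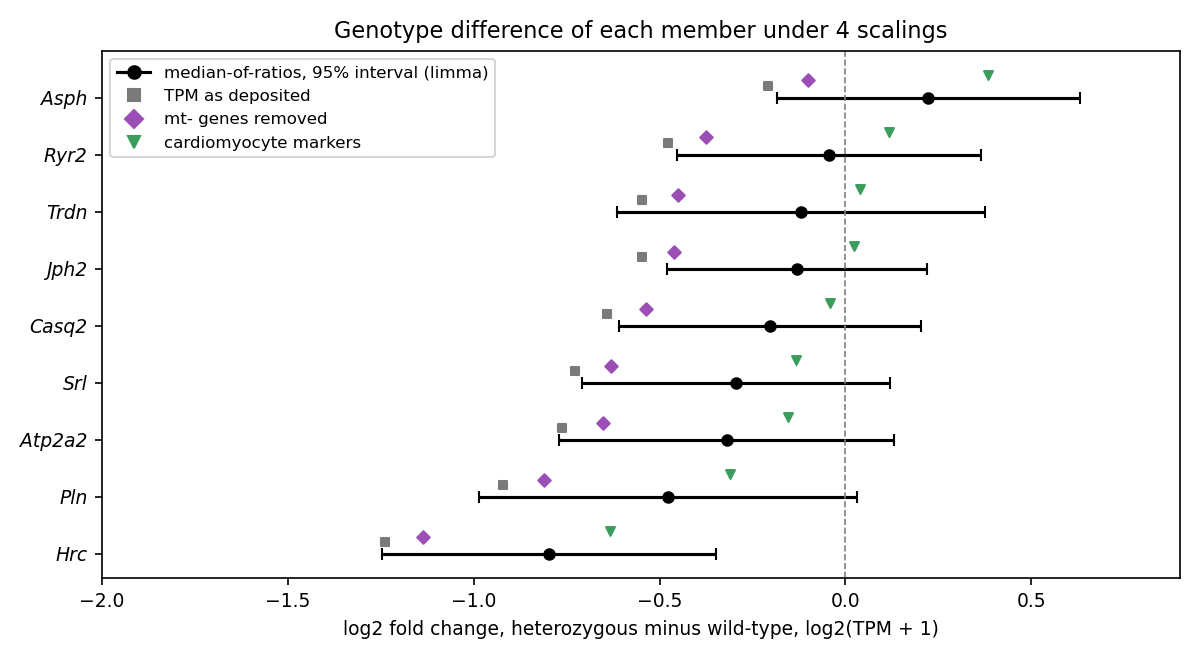
Log2 fold change of each tested member (heterozygous minus wild-type, on the log2(TPM + 1) scale), with black points and 95% intervals from limma after median-of-ratios scaling and coloured points for the other scalings. The interval of *Hrc* ends at -0.35, those of the other members span 0, and all 9 members lie under 0 with TPM as deposited.

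A ratio of 2 members within a heart does not depend on how libraries are scaled. The TPM ratio of *Hrc* to *Trdn*, a calcium-binding protein and its anchor, was 5.92 and 5.09 for wild-type and 3.55 and 3.30 for heterozygous hearts. Its difference in log2 was -0.68. The ratio of *Pln* to *Atp2a2*, the brake to the pump, was 1.40 and 1.37 against 1.15 and 1.33, a log2 difference of -0.16. Here 1 heterozygous heart was close to the wild-type hearts, and without heterozygous replicate 1 the log2 difference was -0.06. The ratio of *Ryr2* to *Atp2a2*, channel to pump, was 0.0923 and 0.107 against 0.134 and 0.108, a log2 difference of 0.27, with wild-type replicate 2 and heterozygous replicate 2 almost equal. The ratio of *Casq2* to *Ryr2*, buffer to channel, was 2.06 and 1.89 against 1.77 and 1.76, a log2 difference of -0.16. These 4 ratios did not overlap between genotypes. *Atp2a2* and *Ryr2* recur among them, and how often ratios of other genes separate was not computed. For each of the 4 ratios the exact permutation test gave a two-sided p of 0.33, the smallest that 2 hearts against 2 allow (adjusted p = 0.416 over the 5 ratios computed). The ratio of *Fkbp1b* to *Ryr2* overlapped, at 0.00624 and 0.0106 against 0.00638 and 0.00509 (exact permutation test, two-sided, p = 0.667, adjusted p = 0.667).

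**Figure D3:**
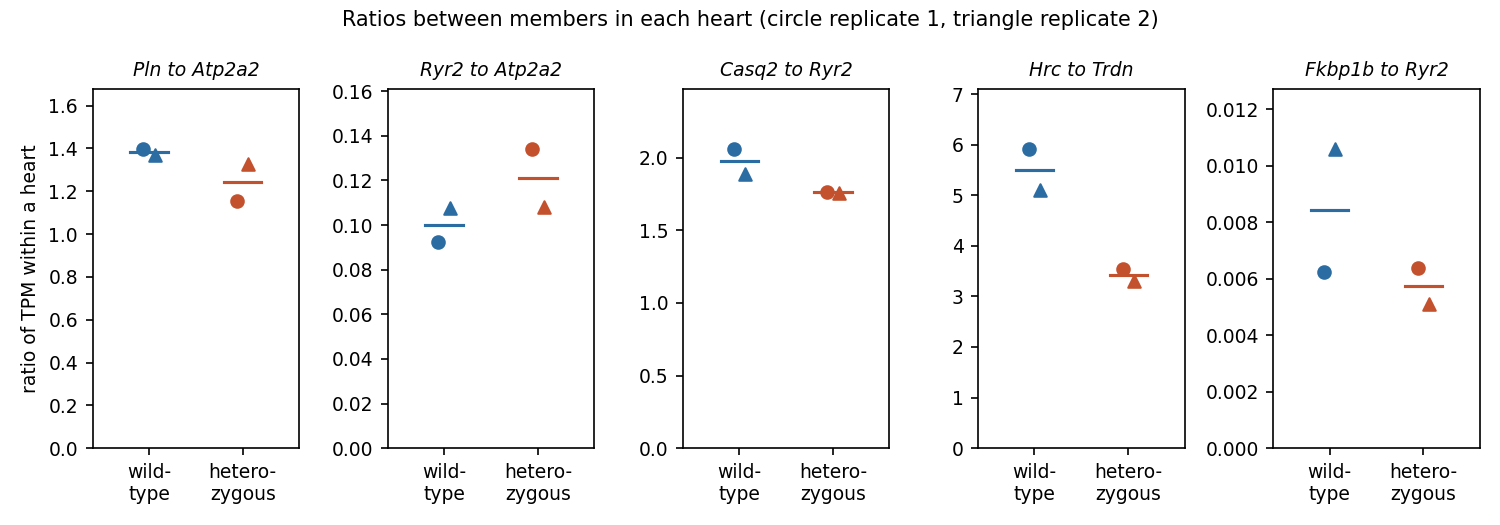
Ratio of the TPM of 2 members within each heart, on axes that start at 0, with circles for replicate 1, triangles for replicate 2 and bars for the mean of 2 hearts. The *Hrc* to *Trdn* ratio lies between 5.09 and 5.92 in wild-type and between 3.30 and 3.55 in heterozygous hearts, and the other ratios lie closer together or overlap.

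The 250 bases before the RefSeq start of *Hrc* and *Pln* (build GRCm38.p6) are shown because these members had the lowest log2 fold changes. Capitals mark the letters CCCTC on either strand (read as GAGGG on the other strand), after which CTCF, the CCCTC-binding factor, is named. *Hrc* lies at chr7:45335019-45335268 and *Pln* at chr10:53337436-53337685, both on the plus strand.
Hrc: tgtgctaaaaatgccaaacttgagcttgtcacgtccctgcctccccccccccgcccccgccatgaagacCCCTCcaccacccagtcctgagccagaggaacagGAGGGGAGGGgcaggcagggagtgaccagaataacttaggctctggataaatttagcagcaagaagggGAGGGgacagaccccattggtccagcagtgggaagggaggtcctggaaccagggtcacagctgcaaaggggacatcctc
Pln: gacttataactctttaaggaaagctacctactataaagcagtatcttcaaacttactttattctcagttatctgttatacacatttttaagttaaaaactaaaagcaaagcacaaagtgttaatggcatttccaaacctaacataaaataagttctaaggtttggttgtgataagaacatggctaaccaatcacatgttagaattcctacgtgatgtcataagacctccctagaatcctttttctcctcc

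The letters occurred 4 times before *Hrc* and 0 times before *Pln*, and 59.6% of the bases before *Hrc* but 32.8% of those before *Pln* were G or C. RefSeq windows were found for 6 of the 10 members, of which 4 (*Hrc*, *Casq2*, *Jph2* and *Fkbp1b*) held the letters at least 1 time, and *Ryr2* did not. Of all 32851 windows of that length, 60.5% held them. A MEF2 motif, the site of a muscle transcription factor family, was found before 1 member, *Casq2*, and in 2.92% of all windows. A CArG box, the site of serum response factor, was found before 0 members and in 1.47% of all windows. Such matches describe letters only, and binding was not measured in these samples.

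Other genes of the same pathway were read from lists chosen with earlier results of these data known. Of 12 paralogs of the members and inositol trisphosphate receptors, 4 passed the expression minimum, with a median log2 fold change of 0.01 and none at an unadjusted p under 0.05. The skeletal muscle forms *Ryr1* and *Atp2a1* stayed under 0.6 scaled TPM in every heart. *Itpr1*, an inositol trisphosphate receptor that also releases calcium, stood at 7.32 and 6.69 against 8.02 and 5.59 scaled TPM (log2 fold change -0.05, limma adjusted p = 0.922). *Itpr1* overlapped between genotypes, as *Fkbp1a* did.

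Of 19 accessory proteins of the reticulum, 16 were tested, with a median log2 fold change of -0.21, and none was called. An unadjusted p under 0.05 from limma was found for 3, all lower in heterozygous hearts, and on that side for 5.71% of all tested genes. The genotypes separated on the lower side for 6 of the 16 and on the higher side for 3. Among all tested genes these shares were 23.3% and 23.7%. *Calr*, which encodes the calcium-binding chaperone calreticulin, stood at 29.1 and 38.1 scaled TPM in wild-type and at 25.4 and 21.6 in heterozygous hearts (log2 fold change -0.49, SE 0.20, limma adjusted p = 0.396). *Tmem109* had a log2 fold change of -0.47 (SE 0.17, limma adjusted p = 0.372), and *Tmco1*, which encodes a calcium leak channel of the reticulum, had one of -0.42 (SE 0.16, limma adjusted p = 0.382). *S100a1* encodes a calcium sensor that binds RYR2 and SERCA2a. It stood at 306.6 and 319.8 scaled TPM in the wild-type hearts and at 196.7 and 265.8 in the heterozygous hearts, so its groups did not overlap (log2 fold change -0.45, SE 0.22, limma adjusted p = 0.438). *Stim1*, the sensor of reticulum calcium, stood on the other side, at 4.53 and 4.55 against 7.74 and 5.16 scaled TPM (log2 fold change 0.41, SE 0.19, limma adjusted p = 0.433).

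*Sln* encodes sarcolipin, an inhibitor of the pump that is found mainly in atria. It stood at 10.8 and 46.1 scaled TPM in the wild-type hearts and at 27.8 and 52.8 in the heterozygous hearts, a spread within genotypes wider than the difference between them (log2 fold change 0.74, SE 0.62, limma adjusted p = 0.634). Summed over 5 atrial markers, *Sln* among them, the level was 807.3 and 2359 scaled TPM for wild-type and 1920 and 3286 for heterozygous hearts, the same order of hearts. The part of atrial RNA in the members' values was not tested.

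Of 11 genes of the transverse tubule and the dyad, all 11 were tested, with a median log2 fold change of -0.04, and none was called. The genotypes separated on the lower side for 3 and on the higher side for 2. An unadjusted p under 0.05 from limma was found for 1, lower in heterozygous hearts, and on that side for 5.71% of all tested genes. That gene was *Cacnb2*, which encodes the beta subunit that brings the L-type calcium channel to the membrane. It stood at 17.1 and 16.2 scaled TPM in wild-type and at 9.79 and 8.70 in heterozygous hearts, with closely grouped replicates (log2 fold change -0.79, SE 0.15, limma adjusted p = 0.271). The pore subunit of the same channel, *Cacna1c*, overlapped between genotypes at 45.2 and 51.7 against 53.1 and 46.5 scaled TPM (log2 fold change 0.04, limma adjusted p = 0.942). *Tcap*, which encodes a titin-binding protein needed for tubule organisation, had a log2 fold change of -0.34 (adjusted p = 0.614), *Cacna2d1* one of -0.26 (adjusted p = 0.575) and *Dysf*, a membrane repair gene, one of 0.27 (adjusted p = 0.488, all from limma). *Cacna1c* was named beside *Cacnb2* after its values were seen.

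The summed level of the 10 cardiomyocyte markers was 28157 and 26388 scaled TPM for wild-type and 22454 and 26868 for heterozygous hearts, and it was lowest in heterozygous replicate 1. Their median log2 fold change was -0.26, close to that of the tested members, but the markers did not move together. Of the 10 markers, 6 were under 0 and 4 above it, from -0.48 to 0.35. Scaled to these markers, the median of the members was -0.04, *Hrc* stood at -0.63 (limma adjusted p = 0.249), *Pln* at -0.31 (limma adjusted p = 0.456) and *Atp2a2* at -0.15 (limma adjusted p = 0.728). The genotypes then separated on the lower side for 3 of the 9 tested members and for 10.3% of all tested genes. What part the cardiomyocyte RNA of each heart has in the members' values was not tested. Erythroid transcripts, summed over 5 genes, stood at 929.8 and 987.0 against 965.4 and 2120 scaled TPM, and their part was not tested either. Fibroblast (53.5 to 80.3), mural (49.8 to 73.1) and macrophage markers (21.8 to 30.7) gave the ranges of summed scaled TPM stated, and their sums overlapped between genotypes. Endothelial markers summed to 264.6 and 263.8 for wild-type and 296.9 and 343.4 for heterozygous hearts. Most of each sum came from *Egfl7*, at 196.5 and 193.3 against 234.8 and 277.0 scaled TPM. Of these 6 endothelial genes, 4 had a log2 fold change under 0 and 2 above it. Adipocyte markers summed to 2.18 and 0.929 against 0.196 and 0.808. None of these 4 genes reached the expression minimum, and *Cfd* stood at 1.72 and 0.746 against 0.0856 and 0.587 scaled TPM. The part of these cell types was not tested.

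**Figure D4:**
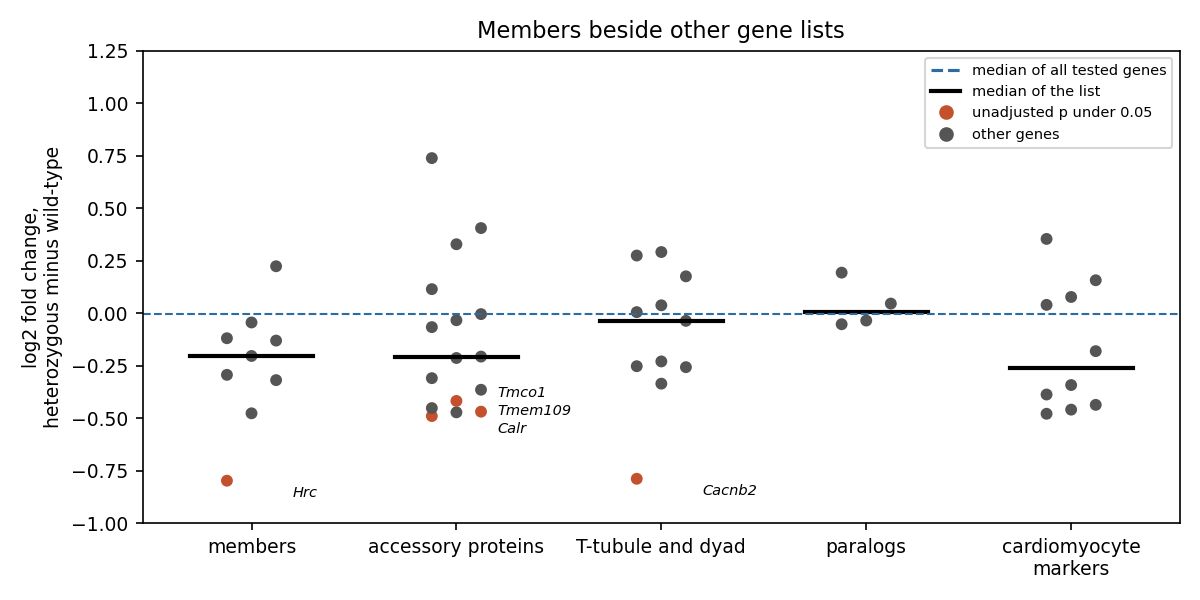
Log2 fold change (heterozygous minus wild-type) of each tested gene in the member list and in 4 other lists, with a bar for the list's median, a dashed line for the median of all tested genes and named red points for an unadjusted p under 0.05. The medians of the members (-0.20), the accessory proteins (-0.21) and the cardiomyocyte markers (-0.26) lie under the line, and those of the dyad genes (-0.04) and paralogs (0.01) lie near it.

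*Hrc* was the member furthest from 0, and the tested genes whose 4 values moved most like its own were *Pnpla2*, *Gm10250* and *Gm50321*. Likeness was measured as the root mean square distance of log2 scaled values, each gene centred on its own mean over the 4 hearts. It was 0.0152, 0.0421 and 0.0466. Every other tested member had a nearest gene that was closer, from 0.0025 for *Atp2a2* to 0.0140 for *Pln*. Genes picked in this way have a log2 fold change like that of *Hrc* because they were selected on the same 4 values. *Pnpla2*, which encodes the lipase that starts triglyceride breakdown, stood at 19.9 and 24.3 scaled TPM in the wild-type hearts and at 11.6 and 13.2 in the heterozygous hearts (log2 fold change -0.78, SE 0.17, limma adjusted p = 0.290). *Gm10250* and *Gm50321*, both predicted gene models, had log2 fold changes of -0.74 and -0.81 (adjusted p = 0.290 for both from limma). Among the members themselves the closest pair by the same measure was *Srl* and *Atp2a2*, at a distance of 0.0650.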

How the data were processed

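Poly(A) RNA of 4 hearts was sequenced, 1 library per heart. The authors trimmed reads with Trim Galore, aligned them to mm10 with STAR and quantified genes with RSEM, and they deposited TPM values rounded to 2 decimals. The annotation release is not given in the sources used here. The authors' own test, DESeq2, needs read counts, which were not analysed here, so no count model was fitted. The TPM keep no depth. Replicates are those numbered in the labels, which do not say how the animals relate, so p-values measure the spread between these samples. In limma this spread is moderated. The variance of each gene is drawn toward a trend over all tested genes (4.64 prior degrees of freedom), which enters each SE, interval and p-value.

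From there, TPM were divided by median-of-ratios factors over the tested genes above 0 in every library. On log2(scaled TPM + 1), limma 3.58.1 (lmFit, eBayes with trend; R 4.3.3) tested the 10036 genes whose mean TPM reached 1, and gave every adjusted p of a single gene. Ratios were compared with exact permutation tests in SciPy (1.17.1), Python (3.11.15). Identifiers were matched without version to GENCODE M21 of mm10 (55141 of 55401). The scripts were tested on simulated data.

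The members and gene lists were chosen with earlier results of these data known. The text names all members, genes of the paralog, accessory and dyad lists with an unadjusted p under 0.05, up to 3 more from each of these lists with the largest change whose mean TPM reached 5, and the 3 genes nearest to the member furthest from 0. Genes given in other sentences were chosen after their values were seen. The alternatives were pseudocounts of 0.1 and 5, no filter, a filter at a mean TPM of 5, unscaled TPM, TPM rescaled without mt- genes, quantile normalization, scaling to cardiomyocyte markers, eBayes without trend or robust, a replicate block, stricter thresholds and each library left out.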

Additional observations from a re-analysis of the deposited data

How the results depend on the processing

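Each genotype had 2 hearts and the depth behind the TPM is unknown, so counting error could not be separated from the spread between hearts. The number of members called was 0 in each direction under every alternative run. Over all tested genes 2 were called lower and 0 higher. The counts were 4 and 0 with a pseudocount of 0.1, 0 and 0 without a filter (24424 genes tested), 11 and 2 on unscaled TPM, 12 and 2 without mt- genes, 4 and 8 when scaled to cardiomyocyte markers, and 3 and 2 with eBayes robust. Leaving out each library gave 4 to 13 lower and 0 to 11 higher. Where that left 1 library in a genotype, it was assumed to vary like the other genotype's libraries.

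Members with an unadjusted p under 0.05 numbered 1 lower and 0 higher. The lower count was 6 on unscaled TPM (33.3% of all tested genes), 6 without mt- genes (28.5%), 2 with quantile normalization (6.23%) and 2 with eBayes without trend (5.92%). It was 0 to 3 with a library left out (2.15% to 12.3%), when 0 to 1 members were higher. It was 0 without wild-type replicate 2 and 3 (*Hrc*, *Pln* and *Atp2a2*) without heterozygous replicate 2, when *Asph* was the 1 on the higher side, beside 1007 of the 10036 tested genes. Members separated by genotype numbered 6 lower and 1 higher. The lower count was 9 on unscaled TPM (67.8% of all tested genes), 8 without mt- genes (58.9%), 3 when scaled to cardiomyocyte markers (10.3%) and 6 to 8 with a library left out (32.6% to 40.6%). The higher count was 0 on unscaled TPM (2.32%), 0 without mt- genes (4.41%) and 1 to 2 with a library left out (33.1% to 40.8%). The members' median of -0.20 became -0.64 on unscaled TPM, -0.54 without mt- genes and -0.041 when scaled to cardiomyocyte markers, and lay between -0.33 and -0.15 with a library left out.

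Some single members changed sign. When scaled to cardiomyocyte markers *Ryr2* stood at 0.12, *Trdn* at 0.039 and *Jph2* at 0.025. *Asph* stood at -0.21 on unscaled TPM and at -0.10 without mt- genes. With a library left out *Ryr2* ranged from -0.16 to 0.073 (without wild-type replicate 2, and 0.0093 without heterozygous replicate 2) and *Trdn* from -0.34 to 0.10 (without wild-type replicate 2, and 0.0084 without heterozygous replicate 1). The log2 difference of the *Fkbp1b* to *Ryr2* ratio was -0.51, and 0.28 with 1 added to both values. With a library left out the differences of ratios lay between -0.26 and -0.057 for *Pln* to *Atp2a2*, 0.12 and 0.43 for *Ryr2* to *Atp2a2*, -0.23 and -0.099 for *Casq2* to *Ryr2*, -0.79 and -0.57 for *Hrc* to *Trdn*, and -0.89 and -0.13 for *Fkbp1b* to *Ryr2*. The cause of these shifts was not tested.

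Libraries share only a replicate number between genotypes and come from different mice. Across genes, the same-numbered libraries deviated together with a correlation of 0.101. A replicate block gave 7 called lower and 3 called higher, 0 of them members, and *Hrc* had an adjusted p of 0.214 from limma.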
